A study of Arabidopsis thaliana with 16 samples.

Results

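Transcripts of the photosynthesis genes encoded in the chloroplast chromosome were followed in Arabidopsis thaliana leaves at 4 states of photosynthesis along a rising temperature curve. The genes were chosen by symbol: those of the psa (photosystem I), psb (photosystem II), pet (cytochrome b6f), ndh (NDH complex) and atp (ATP synthase) series and rbcL (Rubisco), each with a probe set assigned to that gene alone. The choice gave 43 genes among the 22746 probe sets tested, with 5 in photosystem I, 15 in photosystem II, 6 in cytochrome b6f, 10 in NDH, 6 in ATP synthase and 1 in Rubisco. The chloroplast annotation holds 44 such symbols, and the remaining one, ndhB, lies in the inverted repeat and shares its probe set between both copies.

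All plants were line Columbia (ecotype Col-0), grown at 22 °C with a 10 h photoperiod, 350 µmol m-2 s-1 of light and 60% relative humidity, and the first fully expanded leaf was sampled. Leaves were taken at the growth temperature (the baseline), at the photosynthetic optimum, and at the points of the curve at which photosynthesis had been inhibited by 20% and by 30% from that optimum. The temperature was stepped up between 22 and 42 °C by 2 °C every 10 min, photosynthesis was left to stabilise for 20 to 30 min, and a curve took 3 to 4 h. Each state had 4 arrays (n = 4 for every state below), described in the labels as leaves of randomly collected plants. Whether each array is a separate plant is not stated, so a p-value reflects only how these samples vary, which may be technical in part. The leaf temperature of each state is not given in the labels. A hotter state was also a later one, so heat, elapsed time and clock time cannot be told apart.

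The chloroplast chromosome encodes the reaction-centre and core subunits of the thylakoid complexes, while many peripheral subunits and all light-harvesting proteins are nuclear. Photosystem II takes electrons from water and passes them through cytochrome b6f to photosystem I, the NDH complex returns electrons from ferredoxin to the plastoquinone pool in cyclic flow, ATP synthase uses the proton gradient, and Rubisco fixes carbon. Most of these genes lie in operons, so one transcript can carry several of them and probe sets of neighbouring genes can read the same molecules. Stable chloroplast transcripts mostly lack a poly(A) tail, and in plastids a tail marks RNA for decay. The leaf RNA was labelled by the standard Affymetrix protocol, and for transcripts without a tail the signal may follow priming as well as abundance, which was not tested.

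Signals are on the log2 scale made by the authors with RMA, and a change is the mean of the later state minus the mean of the earlier one. A gene is said to have risen or fallen where limma's test gave a Benjamini-Hochberg adjusted p, over all 22746 probe sets, under 0.05. The 16 arrays correlated at 0.988 to 0.998 within states, and their values ran from 3.25 to 14.7. The mesophyll gene RCA, encoding Rubisco activase, read 14.35 to 14.64 in every array and the guard cell regulator FAMA 6.33 to 6.99, and these were the only 2 of 16 tissue markers with a named probe set.

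The arrays differed in a control for RNA without a tail. The 25S rRNA control read 5.92, 5.68, 5.55 and 6.41 at baseline, 6.19, 5.52, 5.91 and 6.31 at the optimum, 12.99, 10.41, 5.25 and 12.88 at 20% inhibition, and 10.01, 9.76, 11.35 and 8.67 at 30% inhibition. It was thus high in 7 of the 8 arrays of the inhibited states, and replicate 3 at 20% inhibition had the baseline's level. Its mean was 4.06 higher at 30% inhibition than at baseline (exact two-sided permutation p = 0.0286, the smallest that 70 assignments allow, and 0.0857 adjusted over 3 tests) and 4.49 higher at 20% inhibition (exact p = 0.143, adjusted 0.214). Baseline replicate 3 stood apart in the chloroplast genes themselves, with 42 of 43 below the baseline mean and a median deviation of −0.25, while baseline replicate 1 had only 2 of 43 below it. The 3′ minus 5′ signal of the actin control, a sign of RNA length, averaged 1.37 ± 0.14 at baseline, 1.28 ± 0.06 at the optimum, 1.15 ± 0.17 at 20% inhibition and 1.15 ± 0.04 at 30% inhibition (SD, n = 4 each). The same measure of the GAPDH control went the other way, with 0.04 ± 0.06 at baseline, 0.11 ± 0.06 at the optimum, 0.14 ± 0.12 at 20% inhibition and 0.20 ± 0.06 at 30% inhibition, and that of ubiquitin averaged −0.05 ± 0.08, −0.06 ± 0.03, 0.01 ± 0.05 and −0.03 ± 0.02 in the same order. The part of these measures in the results was not tested beyond the values given.

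**Figure D1:**
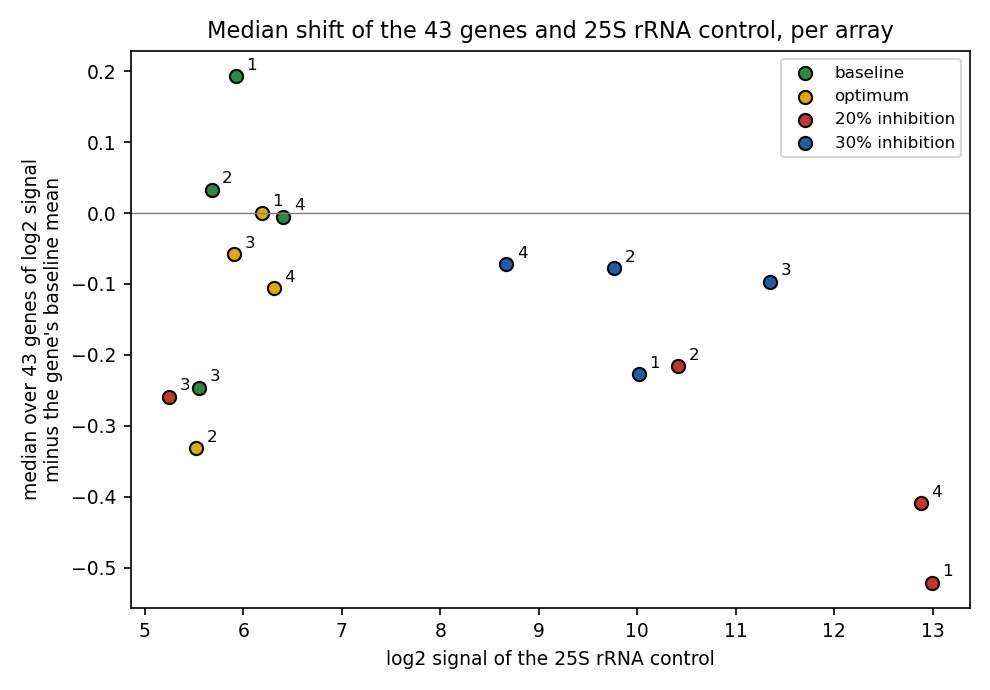
Median over the 43 genes of the log2 signal minus the gene's baseline mean (vertical axis) against the log2 signal of the 25S rRNA control (horizontal axis), 1 point per array, numbered by replicate and coloured by state. The arrays at 20% inhibition lie at −0.52, −0.22, −0.26 and −0.41, and replicate 3 lies at −0.26 with a control signal of 5.25.

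The falls among the 43 genes were mostly seen at 20% inhibition. The 20% state had the lowest mean of the 4 states for 33 genes, and the baseline had the highest for 28. Against the baseline, 22 genes fell and none rose at 20% inhibition (background 24.9% of all probe sets called lower and 18.9% called higher), with a median change of −0.36 against 0.00 over all probe sets. At 30% inhibition 8 genes fell and 1, psbA, rose (background 24.9% lower and 19.3% higher), with a median of −0.12 against −0.01. At the optimum 1 gene, psbC, fell (background 8.43% lower and 8.14% higher), with a median of −0.11 against −0.03, and none was higher at an unadjusted p under 0.05 in limma. All 3 comparisons share the same baseline arrays. In leaf RNA fewer cells of a type and less RNA per cell cannot be told apart.

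The share that fell at 20% inhibition, 22 of 43, was above the background, and the share that fell at 30% inhibition, 8 of 43, was not. At an unadjusted p under 0.05 in limma no gene was higher at 20% inhibition and psbA alone was at 30%. In 20% replicate 3, the array with the baseline's 25S signal, 18 of the 22 read below every baseline array, compared with 21, 17 and 21 in the other 3 arrays. All 4 arrays, replicate 3 included, entered the fit that chose these genes, so these counts are a description only. Of the 22, 16 fell without each array in turn. The exceptions were atpB without baseline replicates 1 or 2 or 20% replicate 2 (adjusted p 0.0548 to 0.0633), ndhD without baseline replicates 1, 2 or 4 or 20% replicate 1 (0.0573 to 0.111), petL without baseline replicates 1 or 2 or 20% replicate 1 (0.0956 to 0.128), psbE without baseline replicates 1 or 2 or 20% replicates 1 or 4 (0.0561 to 0.0807), and petA and psbH, given below. In a fit with the 25S signal as a covariate 10 fell and psbN rose (0.52, 0.0365), where the 25S signal itself goes with the state. Of the 22, 13 were not called in that fit.

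Set directly against the optimum, 10 genes fell at 20% inhibition and none rose (background 22.9% lower and 18.8% higher), with a median of −0.20 against 0.03 over all probe sets. The share that fell, 10 of 43, was near that background. None was higher at an unadjusted p under 0.05 either. From 20% to 30% inhibition none of the 43 changed in limma's test (background 7.16% called either way), although 8 were higher at an unadjusted p under 0.05. The value was above 0 for 38 of 43, with a median of 0.21 against −0.01 over all probe sets. Without 30% replicate 1 this step had 3 rises, psbD (0.78, adjusted p 0.0492), psaC (0.93, 0.00913) and ndhG (0.89, 0.0475). Without 20% replicate 2 ndhG rose (0.91, 0.0364), and without 20% replicate 3 psaI rose (0.41, 0.0357). The count of 10 against the optimum was 5 without optimum replicate 1 or without 20% replicates 1 or 4, and 6 without optimum replicates 3 or 4. Over all 4 states, 17 of 43 genes varied by limma's F test, a share below the background of 54.0%, and 10 did without 20% replicate 1.

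**Figure D2:**
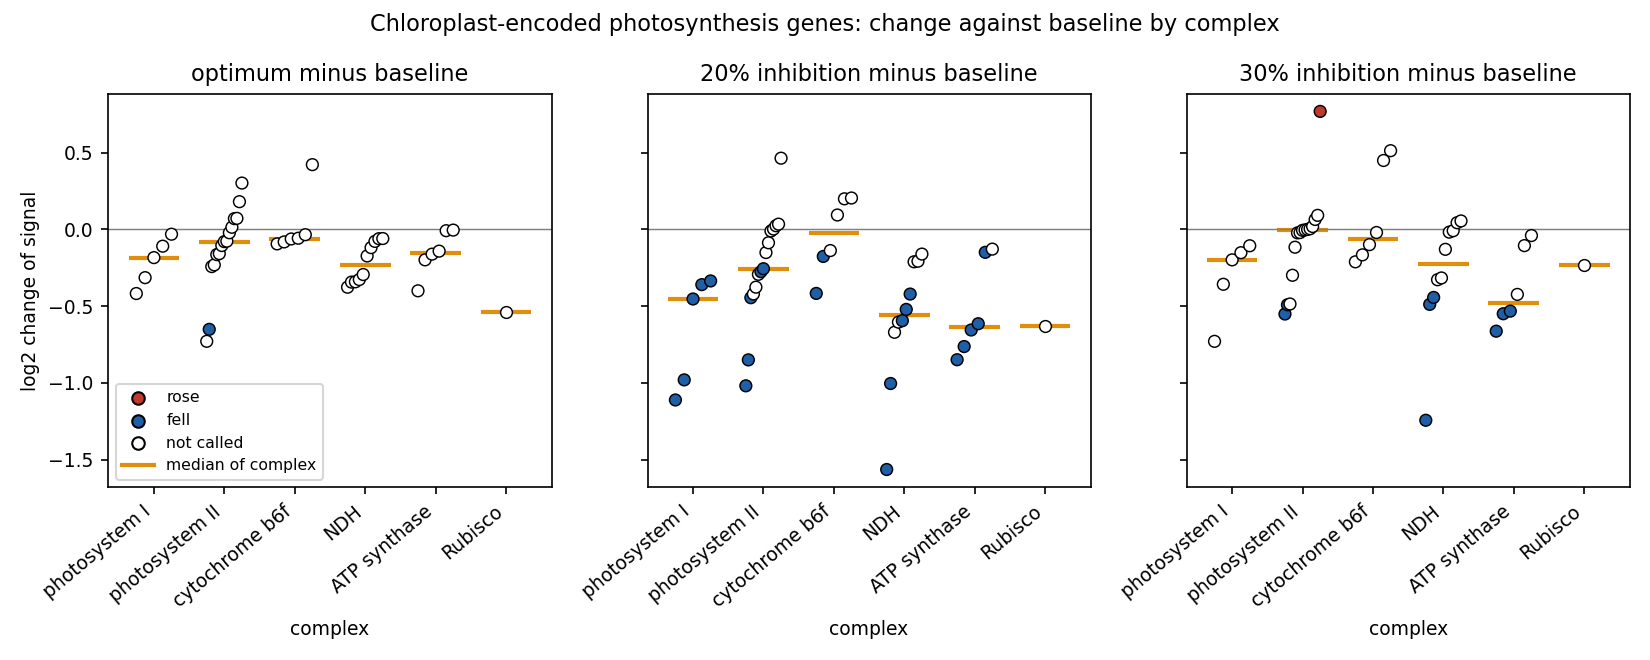
Log2 change of each of the 43 genes against the baseline (vertical axis) at the optimum, 20% and 30% inhibition, grouped by complex, with filled points for genes that rose or fell and a bar at the median of the complex. At 20% inhibition all 5 photosystem I genes and 5 of 6 ATP synthase genes are filled, while 2 of 6 cytochrome b6f genes are.

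The complexes differed in how many members fell. Over all probe sets 24.9% were called lower at 20% inhibition and 24.9% at 30% inhibition. The shares of photosystem II and cytochrome b6f at 20% were near that background, as was the NDH share at 30%. At 20% inhibition all 5 photosystem I genes fell (median −0.45), as did 5 of 6 for ATP synthase (−0.63), 5 of 10 for NDH (−0.56), 5 of 15 for photosystem II (−0.26) and 2 of 6 for cytochrome b6f (−0.02), and rbcL did not pass the test (−0.63). With the 25S signal as a covariate 1 of 5 photosystem I genes (psaA) fell, 3 of 6 for ATP synthase, 3 of 10 for NDH, 2 of 15 for photosystem II, none of 6 for cytochrome b6f, and rbcL. At 30% inhibition none of the 5 photosystem I genes fell (−0.20), against 3 of 6 for ATP synthase (−0.48), 3 of 10 for NDH (−0.22), 2 of 15 for photosystem II (−0.01) and none of 6 for cytochrome b6f (−0.06). At an unadjusted p under 0.05 in limma, 2 photosystem I genes and 1 cytochrome b6f gene were lower there. By the F test 5 of 5 photosystem I, 5 of 6 ATP synthase, 4 of 10 NDH, 3 of 15 photosystem II, 0 of 6 cytochrome b6f and 0 of 1 Rubisco genes varied. The background of that test was 54.0%, and the shares of NDH, photosystem II, cytochrome b6f and Rubisco were below it. Baseline signals also differed, with a median of 9.66 for cytochrome b6f and 12.72 for photosystem I. Differences between complexes were not tested, since members of an operon share transcripts.

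**Figure D3:**
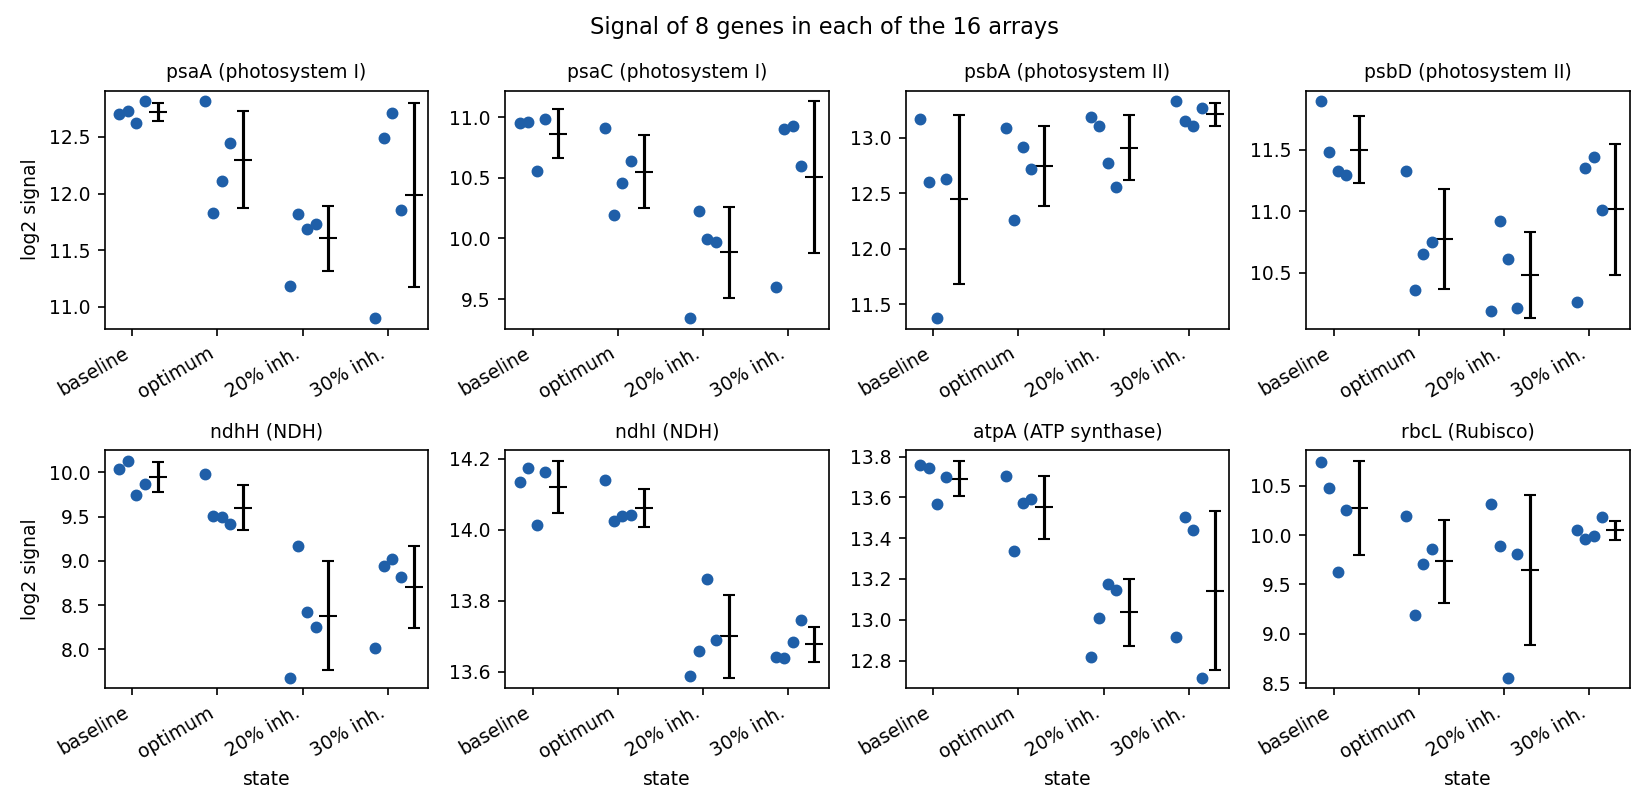
Log2 signal of 8 genes in each of the 16 arrays (points, replicates 1 to 4 from left to right) with the mean and SD of each state beside them. ndhH, ndhI and atpA lie below every baseline array at both inhibited states, psaA and psbD do so at 20% inhibition only, and psbA is highest at 30% inhibition.

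In photosystem I, psaA and psaB encode the large reaction-centre proteins that bind P700. psaA read 12.70, 12.73, 12.63 and 12.81 at baseline, 12.81, 11.83, 12.11 and 12.45 at the optimum, 11.18, 11.82, 11.69 and 11.73 at 20% inhibition, and 10.90, 12.49, 12.71 and 11.86 at 30% inhibition. All 4 arrays at 20% lay below every baseline array, whereas at 30% replicate 1 was the lowest array of all and replicate 3 overlapped the baseline. psaA fell by 1.11 ± 0.30 at 20% inhibition (SE, 2.16-fold lower, limma adjusted p = 0.00513), and its change of −0.73 ± 0.30 at 30% did not pass (adjusted p = 0.0553). At 30% it passed without optimum replicate 1 (0.0492), without 30% replicate 2 (−0.90, 0.0291) and without 30% replicate 3 (−0.97, 0.012). Without 30% replicate 1, however, the change was −0.37. The highest adjusted p for psaA at 30% in any of the fits was 0.209. psaB, cotranscribed with psaA, fell by 0.36 ± 0.09 at 20% inhibition (0.00402) and by 0.25 against the optimum (0.0387), with no overlap of arrays in either comparison. The second of these calls ended without optimum replicates 1, 3 or 4 or 20% replicates 1 or 4 (0.0559 to 0.128), and with the 25S covariate (−0.20, 0.263).

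The iron-sulfur subunit PsaC hands electrons to ferredoxin, and its gene lies in the ndh operon of the small single-copy region. psaC read 10.95, 10.96, 10.56 and 10.99 at baseline, 10.91, 10.20, 10.46 and 10.64 at the optimum, 9.34, 10.23, 10.00 and 9.97 at 20% inhibition, and 9.60, 10.90, 10.93 and 10.60 at 30% inhibition. It fell by 0.98 ± 0.25 at 20% (1.97-fold lower, adjusted p = 0.00394), where no array overlapped the baseline, and at 30% only replicate 1 lay well below the baseline range. Its fall of 0.67 against the optimum (0.0427) ended without baseline replicates 1, 2 or 4, optimum replicates 1, 3 or 4, 20% replicates 1 or 4, or 30% replicate 4 (0.0504 to 0.149). That fall did not pass with the 25S covariate either (−0.57, 0.244). The small membrane subunits psaI and psaJ fell by 0.45 ± 0.12 (0.00589) and 0.34 ± 0.09 (0.0049) at 20% inhibition. With the 25S signal as a covariate neither passed (−0.24, 0.262 and −0.21, 0.184), nor did psaC (−0.88, 0.0652) or psaB (−0.31, 0.0778). psaJ also fell by 0.30 against the optimum (0.011), with no overlap between those states, but not with the 25S covariate (−0.18, 0.254).

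In photosystem II the operon of psbD, psbC and psbZ carried most of the change. psbD encodes the D2 reaction-centre protein, psbC the inner antenna CP43 and psbZ a small subunit at the edge of the core. psbD read 11.90, 11.48, 11.33 and 11.30 at baseline, 11.33, 10.36, 10.65 and 10.75 at the optimum, 10.19, 10.92, 10.62 and 10.21 at 20% inhibition, and 10.27, 11.35, 11.44 and 11.01 at 30% inhibition. Only the 20% arrays lay wholly below the baseline, and psbD fell there by 1.02 ± 0.25 (2.03-fold lower, adjusted p = 0.00273), which did not pass with the 25S covariate (−0.88, 0.0602). At the optimum its change of −0.73 ± 0.25 did not pass (0.0551) but passed without optimum replicate 1 (−0.92, 0.0196) and without 30% replicate 1 (0.023).

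psbC read 13.04, 12.62, 12.42 and 12.36 at baseline, 12.30, 11.76, 11.84 and 11.93 at the optimum, 11.86, 11.68, 11.76 and 11.73 at 20% inhibition, and 11.44, 12.41, 12.58 and 11.80 at 30% inhibition. The optimum and the 20% arrays all lay below the baseline, while at 30% replicates 2 and 3 overlapped it. It fell by 0.65 ± 0.21 at the optimum (adjusted p = 0.0389), by 0.85 ± 0.21 at 20% (0.00255) and by 0.55 ± 0.21 at 30% (0.0381). The call at the optimum ended without baseline replicates 1 or 2 or optimum replicates 2, 3 or 4 (0.0791 to 0.132). A further gene fell at the optimum when 1 array was left out, which was ndhC without baseline replicate 3 (−0.23, 0.0164), psbZ without baseline replicate 4 (−0.29, 0.0431) and psbD as above. The call at 30% ended without baseline replicates 1 or 2 or 30% replicates 1 or 4 (0.071 to 0.151). With the 25S covariate psbC did not pass at 30% either (−0.66, 0.0701). Nor did it with the 8 compared arrays alone (0.0741) or with the replicate number as a block (0.0569).

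psbZ had less spread and fell at both inhibited states. It read 12.83, 12.61, 12.48 and 12.43 at baseline, 12.24, 12.44, 12.44 and 12.26 at the optimum, 12.13, 12.18, 12.21 and 12.04 at 20% inhibition, and 12.17, 12.16, 11.91 and 12.14 at 30% inhibition. Both inhibited states lay below every baseline array, with changes of −0.44 ± 0.09 at 20% (adjusted p = 0.000425) and −0.49 ± 0.09 at 30% (0.000162).

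psbA encodes the D1 reaction-centre protein, which is damaged by light and replaced during repair, and it rose at 30% inhibition. It read 13.16, 12.60, 11.37 and 12.63 at baseline, 13.09, 12.26, 12.92 and 12.72 at the optimum, 13.18, 13.11, 12.77 and 12.56 at 20% inhibition, and 13.33, 13.15, 13.10 and 13.26 at 30% inhibition. The 30% arrays were tightly grouped, while the baseline ranged over more than a log2 unit with replicate 3 far below the others, and baseline replicate 1 overlapped the 30% arrays. The changes were 0.30 ± 0.27 at the optimum (adjusted p = 0.509), 0.46 ± 0.27 at 20% (0.195) and 0.77 ± 0.27 at 30% (1.70-fold higher, 0.0308). The rise at 30% ended without baseline replicate 3, where the change was 0.41 (0.0942), and without 30% replicates 1 (0.0689), 2 (0.0507) or 4 (0.0609). With the 25S covariate it did not pass either (0.67, 0.181). At 20% it passed without baseline replicate 1 (0.70, 0.0402). Without baseline replicate 3, however, the change at 20% was 0.11. The highest adjusted p for psbA at 20% in any of the fits was 0.697.

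Of the other 11 photosystem II genes, psbE and psbH fell at 20% inhibition. psbE, encoding a cytochrome b559 subunit, fell by 0.28 ± 0.09 (adjusted p = 0.0251), and psbH, encoding a small phosphoprotein of the core, fell by 0.26 ± 0.10 (0.043). The psbH call ended without any 1 of 9 arrays (0.0504 to 0.154), which were baseline replicates 1, 2 or 4, optimum replicates 1 or 3, 20% replicates 1 or 4, and 30% replicates 3 or 4. With the 25S covariate neither passed (psbE −0.22, 0.232 and psbH −0.12, 0.549). psbB, which encodes the inner antenna CP47, changed by −0.42 ± 0.27 at 20% (0.227) and 0.09 ± 0.27 at 30% (0.825), with arrays spread from 10.00 to 11.13 at 30%. The small subunits psbF, psbI, psbJ, psbK, psbL, psbM and psbT and the assembly gene psbN were not called in any comparison, with changes at 20% inhibition between −0.38 (psbK) and 0.03 (psbN). The baseline mean of psbN was 6.65, near the median of 6.15 over all probe sets. With 1 array left out, psbT (−0.50, 0.0173) and psbF (−0.21, 0.0442) passed at 20% without baseline replicate 3, and psbK without 20% replicate 2 (−0.58, 0.00677). psbJ, psbL and psbI lay close to 0 at both inhibited states, with changes of 0.00, 0.02 and −0.01 at 20% and of 0.07, 0.00 and 0.00 at 30%, on standard errors of 0.10, 0.12 and 0.17.

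In cytochrome b6f 2 of 6 genes fell at 20% inhibition, and none of the 6 varied in limma's F test (0 at an unadjusted p under 0.05 too). petA, encoding cytochrome f, read 13.32, 13.26, 13.37 and 13.29 at 20% inhibition, against 13.62, 13.58, 13.25 and 13.50 at baseline, so that baseline replicate 3 lay just under all 4 of the 20% arrays. Its fall of 0.18 ± 0.07 (adjusted p = 0.0449) ended without any 1 of 12 arrays (0.0524 to 0.152), all except baseline replicate 3, optimum replicates 3 and 4 and 20% replicate 3. petL, a small stabilising subunit, fell by 0.42 ± 0.15 at 20% (0.0328). With the 25S covariate petL changed by −0.20 (0.498) and petA by −0.15 (0.27). petB, encoding cytochrome b6, changed by −0.14 ± 0.06 (0.0814) and passed without 20% replicate 3 (−0.18, 0.0208), and petA passed at 30% without baseline replicate 3 (−0.24, 0.00153). petD, encoding subunit IV, changed by 0.09 ± 0.25 at 20% (0.799) and 0.45 ± 0.25 at 30% (0.16), and petN by 0.20 ± 0.28 (0.605) and 0.51 ± 0.28 (0.159). Without baseline replicate 1 both rose at 30%, petN by 0.74 (0.0373) and petD by 0.63 (0.0485). petG had the widest spread of all 43 genes, with arrays from 5.63 to 7.69, and no call. Baseline means were 6.23 for petD, 6.63 for petG and 7.77 for petN, against 14.14 for petB. The median over all probe sets was 6.15, and whether low signals hid changes was not tested.

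The NDH complex held the largest fall of the 43. ndhH, which encodes a subunit of the stromal arm, read 10.04, 10.13, 9.75 and 9.87 at baseline, 9.98, 9.51, 9.50 and 9.42 at the optimum, 7.68, 9.17, 8.42 and 8.25 at 20% inhibition, and 8.02, 8.95, 9.02 and 8.82 at 30% inhibition. Every array of both inhibited states lay below every array of the baseline and the optimum. ndhH fell by 1.56 ± 0.25 at 20% (2.96-fold lower, adjusted p = 7.15e-05), by 1.24 ± 0.25 at 30% (2.37-fold lower, 0.000622) and by 1.22 ± 0.25 from the optimum to 20% (0.000988).

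ndhI, an iron-sulfur subunit of the same arm, had the largest F value of the members (29.2, adjusted p = 5.78e-06), on a small spread. It read 14.13, 14.17, 14.01 and 14.16 at baseline, 14.14, 14.03, 14.04 and 14.04 at the optimum, 13.59, 13.66, 13.86 and 13.69 at 20% inhibition, and 13.64, 13.64, 13.68 and 13.74 at 30% inhibition. The inhibited states did not overlap the other 2 states. It fell by 0.42 ± 0.06 at 20% (2.16e-05) and by 0.44 ± 0.06 at 30% (1.2e-05).

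ndhA, a membrane subunit whose gene has an intron, read 12.82, 12.91, 12.54 and 12.81 at baseline, 12.57, 12.64, 12.71 and 12.84 at the optimum, 11.91, 12.29, 12.30 and 12.19 at 20% inhibition, and 12.16, 12.30, 12.27 and 12.39 at 30% inhibition. It too fell with no overlap, by 0.59 ± 0.10 at 20% (adjusted p = 5.96e-05) and by 0.49 ± 0.10 at 30% (0.000395). ndhG, a membrane subunit, read 8.65, 8.48, 8.26 and 8.45 at baseline, 8.38, 7.71, 8.17 and 8.08 at the optimum, 6.80, 8.15, 7.83 and 7.05 at 20% inhibition, and 7.49, 8.26, 8.39 and 8.39 at 30% inhibition. It fell by 1.00 ± 0.26 at 20% (2.01-fold lower, 0.00389), a value that was −0.56 and did not pass with the 25S covariate (0.21), and changed by −0.33 ± 0.26 at 30% (0.343).

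The membrane subunit ndhD fell by 0.52 ± 0.18 at 20% inhibition (adjusted p = 0.03), and with the 25S covariate its change was −0.39 (0.275). ndhE, of the same operon, changed by −0.60 ± 0.26 (0.0746) and ndhK, of another, by −0.67 ± 0.27 (0.0571), and neither passed. Without baseline replicate 3 both did (ndhE −0.78, 0.0275 and ndhK −0.90, 0.0107), as they did without 20% replicate 2 (0.021 and 0.0302) or 3 (0.0255 and 0.0345), and ndhK also without optimum replicate 2 (0.0483) or 30% replicate 1 (0.0396). ndhC, ndhJ and ndhF had changes of −0.16, −0.21 and −0.21 at 20% and of −0.13, 0.04 and 0.06 at 30%, with no call, though ndhC passed at 20% (−0.27, 0.00167) and at 30% (−0.24, 0.00408) without baseline replicate 3. The baseline mean of ndhF was 5.14, under the median of 6.15 over all probe sets. ndhB, read with both its copies, changed by 0.08 ± 0.15 at 20% (0.716) and 0.11 ± 0.15 at 30% (0.594).

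In ATP synthase the 4 genes of the atpI, atpH, atpF and atpA operon fell together at 20% inhibition. atpA, encoding the alpha subunit of the catalytic head, read 13.76, 13.75, 13.57 and 13.70 at baseline, 13.70, 13.34, 13.57 and 13.59 at the optimum, 12.82, 13.01, 13.18 and 13.15 at 20% inhibition, and 12.91, 13.50, 13.44 and 12.72 at 30% inhibition. Both inhibited states lay below the baseline, with replicates 2 and 3 at 30% close beneath it. atpA fell by 0.66 ± 0.14 at 20% (adjusted p = 0.0012), by 0.55 ± 0.14 at 30% (0.00466) and by 0.51 ± 0.14 from the optimum to 20% (0.00882). The last of these did not pass with the 25S covariate (−0.52, 0.0635).

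atpH, encoding the membrane ring subunit, read 12.15, 12.14, 12.11 and 12.26 at baseline, 12.18, 11.44, 11.69 and 11.75 at the optimum, 11.12, 11.61, 11.30 and 11.23 at 20% inhibition, and 10.96, 11.91, 11.90 and 11.24 at 30% inhibition. Its baseline arrays were closely grouped and above all arrays of both inhibited states, and it fell by 0.85 ± 0.19 at 20% (adjusted p = 0.00139) and by 0.66 ± 0.19 at 30% (0.00861). atpF, encoding a subunit of the stalk, fell by 0.61 ± 0.16 at 20% (0.00485) and by 0.53 ± 0.16 at 30% (0.0124). atpI, encoding the membrane subunit beside the ring, fell by 0.76 ± 0.21 at 20% (0.00633, and 0.0573 with the 25S covariate) and changed by −0.42 ± 0.21 at 30% (0.117). Against the optimum, atpF fell by 0.42 (0.049) and atpI by 0.60 (0.0288) at 20%. The first of these ended without baseline replicates 1 or 2, optimum replicates 1, 3 or 4 or any 20% replicate (0.0585 to 0.143), and the second without optimum replicates 1 or 4 or 20% replicates 1, 3 or 4 (0.0506 to 0.0998). The second also did not pass with the 25S covariate (−0.60, 0.137).

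The other ATP synthase operon carries atpB and atpE, for the beta and epsilon subunits. atpB read 14.34, 14.29, 14.42 and 14.32 at 20% inhibition, against 14.54, 14.52, 14.43 and 14.47 at baseline, and fell by 0.15 ± 0.05 (adjusted p = 0.0199, and −0.12 with 0.224 under the 25S covariate). It fell by 0.14 from the optimum to 20% (0.0291), a call that ended without optimum replicates 1, 3 or 4 or 20% replicates 1, 2 or 4 (0.0541 to 0.0782). That call also ended with the 25S covariate (−0.11, 0.258). atpE changed by −0.13 ± 0.05 at 20% (0.0595) and passed without baseline replicate 3 (−0.15, 0.0442) or 20% replicate 3 (−0.16, 0.0201). Both genes, with ndhI, petB and psbM, had a baseline mean over 14, where the highest value on any array was 14.68. These 5 had a median change of −0.14 at 20% inhibition, and the other 38 had one of −0.40. Whether signals near the top of the scale are compressed was not tested, and ndhI fell with the largest F of the 43.

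rbcL, which encodes the large subunit of Rubisco, was called in no comparison. It read 10.74, 10.48, 9.63 and 10.26 at baseline, 10.20, 9.19, 9.70 and 9.86 at the optimum, 10.32, 9.89, 8.56 and 9.81 at 20% inhibition, and 10.05, 9.96, 9.99 and 10.18 at 30% inhibition. The states overlapped throughout, and the lowest array was replicate 3 at 20% inhibition, the one with a 25S control at the baseline's level. Its changes were −0.54 ± 0.30 at the optimum (adjusted p = 0.26), −0.63 ± 0.30 at 20% (0.108) and −0.23 ± 0.30 at 30% (0.6). At 20% it passed without baseline replicate 3 (−0.85, 0.0361), without 20% replicate 1 (−0.86, 0.0332) and with the 25S signal as a covariate (−1.46, 0.00117). Without 20% replicate 3, however, the change was −0.27. The highest adjusted p for rbcL at 20% in any of the fits was 0.385.

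**Figure D4:**
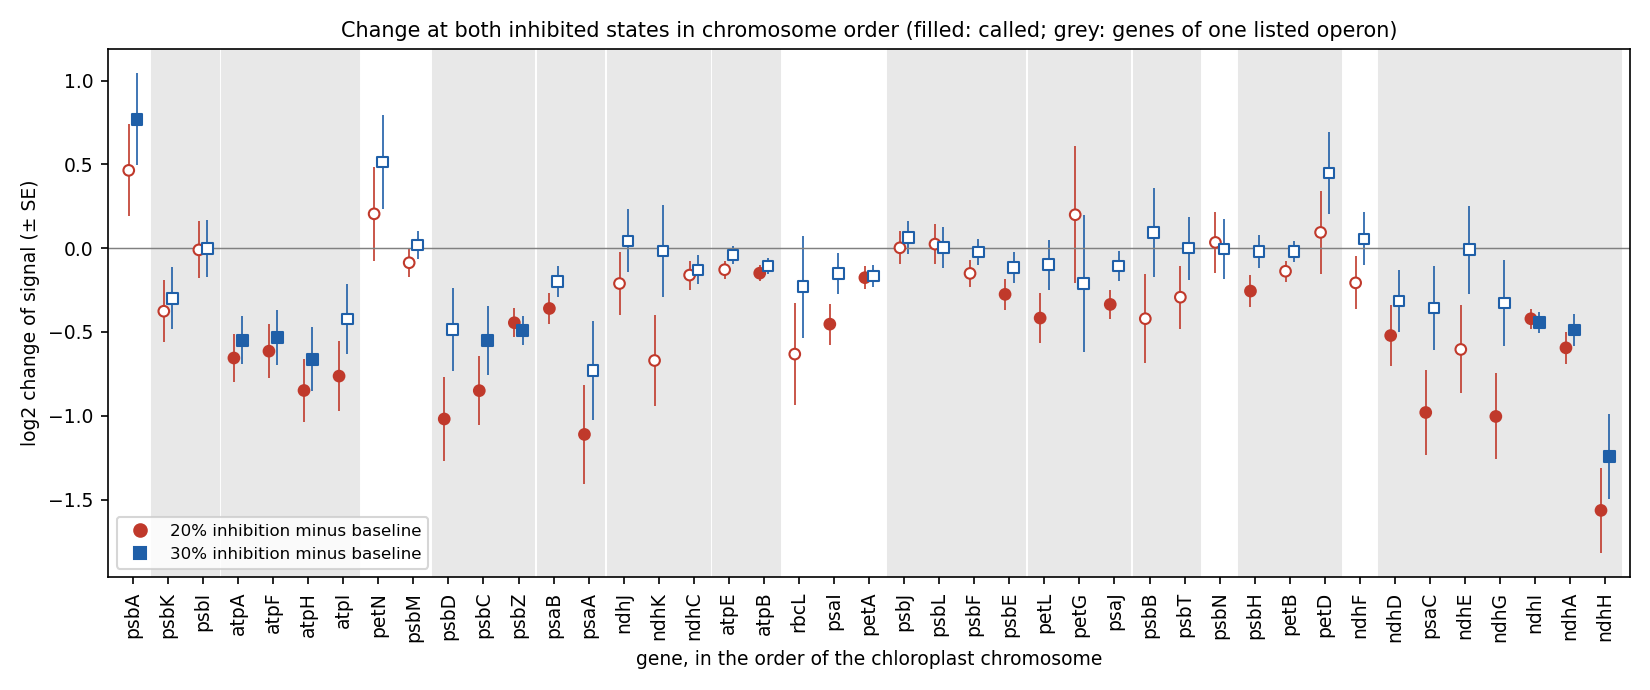
Log2 change with its SE at 20% inhibition (circles) and 30% inhibition (squares) against the baseline for the 43 genes in the order of the chloroplast chromosome, filled where the gene rose or fell, with grey bands for unbroken runs of genes of one operon. The psbB to petD operon is split into separate bands by psbN. The atpI to atpA, psbD to psbZ, psaA and psaB, and ndhD to ndhH bands lie low at 20%, while the psbE to psbJ band has a median of −0.07.

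By operon, the share of genes that fell at 20% inhibition ran from all to none, and psaC fell with 5 of the 6 NDH genes of its operon. The background was 24.9% of all probe sets called lower at 20% inhibition and 24.9% at 30% inhibition. The 20% shares of the psbB to petD and psbE to psbJ operons were near it. At 20% inhibition 6 of 7 genes of the ndhD to ndhH operon fell (median −0.60), 4 of 4 of the atpI to atpA operon (−0.71), 3 of 3 of the psbD operon (−0.85), and psaA and psaB both (−0.74). In contrast 1 of 5 genes fell in the psbB to petD operon (−0.26), 1 of 4 in the psbE to psbJ operon (−0.07) and 0 of 3 in the ndhJ to ndhC operon (−0.21), where 1 was lower at an unadjusted p under 0.05 in limma. In the petL, petG and psaJ operon 2 of 3 fell (−0.34), in the atpB and atpE operon 1 of 2 (−0.14), and in the psbK and psbI operon 0 of 2 (−0.19, with 0 at an unadjusted p under 0.05). At 30% inhibition the ndhD operon had 3 of 7 genes that fell (−0.36), the atpI operon 3 of 4 (−0.54) and the psbD operon 2 of 3 (−0.49). The other operons had none, with psaA, psaB and 1 gene of the atpB and atpE operon lower at an unadjusted p under 0.05. Since the probe sets of an operon may read one transcript, these counts do not stand for independent genes.

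The other chloroplast genes with a probe set of their own, which mostly encode ribosomal proteins and RNA polymerase, were read beside them. Of these 26, 20 fell and 1 rose at 20% inhibition (background 24.9% lower and 18.9% higher), with a median of −0.43. At 30% inhibition 16 fell (background 24.9% lower), with a median of −0.40. By the F test 20 of 26 varied (background 54.0%). The 43 photosynthesis genes had medians of −0.36 and −0.12 at the same states, and the difference between the groups was not tested.

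Nuclear genes for subunits of the same complexes were covered thinly, with 11 of 51 listed loci measured. Against the baseline 1 fell at the optimum, 7 at 20% inhibition and 7 at 30% inhibition, and none rose (none was higher at an unadjusted p under 0.05 in limma either). The share at 20% and 30% was above the background (24.9% called lower at each), with medians of −0.17 at both states. The share at the optimum was near its background (8.43% lower). The 3 measured nuclear NDH genes all fell at both inhibited states. NDHN, a stromal-arm subunit, fell by 0.78 ± 0.09 at 20% (adjusted p = 1.09e-06) and by 0.87 ± 0.09 at 30% (2.76e-07), NDHL, a membrane-anchored subunit, fell by 0.58 ± 0.10 (0.000151) and 0.69 ± 0.10 (2.65e-05), and NDHS, near the ferredoxin-binding site, fell by 0.41 ± 0.08 (0.000482) and 0.33 ± 0.08 (0.00293). PSB27, a photosystem II assembly protein, fell by 0.34 ± 0.05 at 30% (4.98e-05). The measured nuclear photosystem I genes PSAE1 and PSAN were not called. They changed by −0.06 (0.361) and −0.09 (0.172) at 20%, and by −0.04 (0.572) and −0.08 (0.209) at 30%.

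Of 22 listed nuclear factors for plastid transcription and RNA processing, 3 were measured. CRP1, a pentatricopeptide protein known in maize for processing and translating pet and psaC transcripts, averaged 9.90 ± 0.09 at baseline, 9.42 ± 0.08 at the optimum, 8.45 ± 0.13 at 20% inhibition and 8.76 ± 0.09 at 30% inhibition (SD, n = 4 each). It fell by 1.45 ± 0.07 at 20% (2.74-fold lower, limma adjusted p = 4.44e-11) and by 1.14 ± 0.07 at 30% (1.03e-09), and rose by 0.31 between these states (0.0137). PPR10, known in maize for protecting the ends of atpH and psaJ transcripts, fell by 1.29 ± 0.10 at 20% (2.45-fold lower, 1.64e-08) and by 1.06 ± 0.10 at 30% (1.81e-07). RPOTmp, a phage-type RNA polymerase, was not called, with changes of −0.06 ± 0.07 and 0.05 ± 0.07.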

How the data were processed

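The deposited table holds log2 signals per probe set, made by the authors with RMA (background correction, quantile normalisation, probe summary). RMA and limma are named in the submitters' processing notes, with versions not given in the sources used here. Per the labels' protocols, 6 µg of total RNA from 100 mg of leaf was labelled per array. Of 22810 probe sets, 64 controls were left out and 22746 tested, with no scaling, filter or pseudocount. The array annotation assigns 13513 probe sets to 1 gene, 503 to several and 8730 to none. Gene names follow it and the RefSeq annotation, whose build the files do not name, so no coordinates or sequences are given.

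One limma 3.58.1 model (R 4.3.3) with 4 state means was fitted to all 16 arrays, with eBayes, 12 residual and 4.21 prior degrees of freedom, two-sided tests and p-values adjusted by Benjamini-Hochberg within each comparison over all 22746 probe sets. The model was tested on simulated data. The number of arrays limits the precision. The 25S control was compared by exact permutation tests. No member fell in the dimmest 33.3% of probe sets.

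The members, operons and lists were chosen with earlier results of these data known. Named members were, in each complex, the 3 with the highest and 2 with the lowest F, the 3 largest rises and falls against the baseline, and psbA, psbD, psaA, psaB, atpB and rbcL. Of each nuclear list up to 3 rising and 3 falling called genes were named. Other members are named to account for all 43. Alternatives covered the prior, arrays fitted, dim probe sets, centring, array weights, the replicate number as a block, the 25S signal as a covariate, 1 probe set per gene, thresholds and leaving out each array.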

Additional observations from a re-analysis of the deposited data

Results flagged for a closer look

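In 7 of the 120 groups of 4 arrays examined, 1 array lay far from the other 3. Chance alone gives about 1 in 20. ndhH at the optimum read 9.98 in replicate 1, against 9.42 to 9.51 in the others, and ndhI at the optimum read 14.14 in replicate 1, against 14.03 to 14.04. psaJ at 20% inhibition read 13.12 in replicate 1, against 13.55 to 13.56. atpE at 20% inhibition read 14.26 in replicate 3, against 14.11 to 14.12. At 30% inhibition replicate 3 was low for psbZ, at 11.91 against 12.14 to 12.17, and for petG, at 5.63 against 6.58 to 6.76. At baseline psaC read 10.56 in replicate 3, against 10.95 to 10.99.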

How the results depend on the processing

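For the 29 named members, 3188 of 3335 values under the alternatives kept their direction, or stayed uncalled, on the same side of the threshold; 94 lost a call, 53 gained one and none of the called values reversed. Of 22 members that fell at 20% inhibition, 9 did so under each fit and without each array (atpA, atpF, atpH, psbC, psbZ, psaA, ndhI, ndhA and ndhH), and 7 at 30% did. Of the 10 that fell at 20% against the optimum, 3 did (ndhI, ndhA and ndhH). At the optimum the count of 1 was 2 with a trended prior, with the 8 arrays alone, without the dimmest 33.3% and with centred arrays, 4 with array weights, 0 at an adjusted p under 0.01 and 0 with a 2-fold minimum. With the replicate block it was 0, and the 10 against the optimum became 6. The numbers did not pair the arrays, since same-numbered pairs had residual correlations of −0.36 to 0.31 and 5 of 24 were over 0.1. The count of 10 also became 6 with centring and with the 25S covariate (5 fell and psbN rose), 4 at 0.01 and 1 with a 2-fold minimum. With the 25S covariate the count at 20% against the baseline was 11, and 9 varied by F. A 2-fold minimum left 4 at 20% and 1 at 30%, and 6 varied by F at 0.01. Leaving out each array gave 0 to 2 at the optimum, 16 to 29 at 20%, 7 to 10 at 30%, 5 to 15 against the optimum, 0 to 3 between the inhibited states and 10 to 21 by F. The 25S difference ran from −0.02 to 0.26 at the optimum, from 3.62 to 6.20 at 20% and from 3.59 to 4.48 at 30%. At the optimum it was −0.021 without baseline replicate 3 and −0.017 without optimum replicate 4, both under 0. The causes of these shifts were not tested. The effect of signal level on the size of changes was not tested.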

Other observations

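Chosen after its values were seen, rps14, for a small-subunit ribosomal protein, lies beside psaB in the same transcription unit of the chloroplast chromosome. It rose by 0.48 at 20% inhibition (limma adjusted p = 0.0157), while psaA and psaB fell there by 1.11 and 0.36. At 30% inhibition rps14 changed by 0.37 (0.0571). It was the only one of the 26 other chloroplast genes that rose at 20%. Among the ribosomal protein genes of one chromosomal cluster, rpl22 fell by 0.53 at 20% (4.75e-06) and by 0.63 at 30% (5.25e-07), rpl16 by 0.56 (0.000204) and 0.61 (8.34e-05), and rps3 by 0.34 (0.000559) and 0.41 (0.000115). These 3 had their lower value at 30% inhibition, unlike the 33 photosynthesis genes whose lowest state was 20% inhibition. The photosynthesis genes psbZ, ndhI and petG were lowest at 30% too. Of the 15 ribosomal protein genes measured, 10 read lower at 30% than at 20% inhibition and 5 read higher, among them rpl33 and rps4. From 20% to 30% inhibition rpl22 changed by −0.11 (limma adjusted p = 0.396), rpl16 by −0.05 (0.841) and rps3 by −0.06 (0.7), and none passed. None of the 43 photosynthesis genes passed at this step with all arrays either. The contrast between the 3 and the photosynthesis genes was not itself tested. In the 30% state, replicate 1 was the lowest array for psaA, psaC, psbD, psbC, ndhG and ndhH, and 31 of the 43 photosynthesis genes lay below the mean of their state in it. Without it, 3 genes were called higher at 30% than at 20% inhibition.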
